A study of Mus musculus with 18 samples.

Results

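The brain arm of a mouse study of endothelial translatomes set RNA on tagged endothelial ribosomes (Brain Positive, 3 libraries) against RNA of the whole homogenate (Brain Input, 3 libraries). The members are all 13957 genes listed for these 6 of the 18 libraries of the series, which also covers retina and choroid with Positive and Input groups of 3 libraries each. Every group used here came from tamoxifen-induced Cdh5(PAC)-cre/ERT2+; NuTRAP+ mice, so Positive and Input share genotype and induction. Age, sex and the number of animals in a library are not stated, and the labels call the 3 libraries of a group biological replicates, so the spread behind each p-value is that between libraries and may in part be technical. The recombinase is driven by regulatory sequence of Cdh5, the vascular endothelial cadherin gene, and works only once tamoxifen is given. No pull-down from mice without recombinase was among the groups used, so RNA held by the beads without a tag was not measured. Retina Positive and Retina Input enter at the end, as the other tissue of the series whose vessels form a barrier.

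In translating ribosome affinity purification, a ribosomal protein carries a fluorescent tag in the chosen cells alone, and an antibody against the tag draws out whole ribosomes with the messenger RNAs on them. A transcript gains when its share of the RNA drawn out exceeds its share of tissue RNA, and loses when it falls short. Brain endothelial cells are the wall of the blood-brain barrier: tight junctions seal the gaps between them, few vesicles cross them, and carrier proteins move glucose, amino acids and hormones while efflux pumps return lipophilic compounds to the blood. Endothelial cells are a small part of brain tissue, so the Input holds mainly RNA of neurons and glia.

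The pull-down held the RNA of its label. Of 8 endothelial markers, Erg, Pecam1, Tek, Tie1, Cldn5, Cdh5, Kdr and Egfl7, all were higher in Brain Positive, with log2 fold changes between 3.90 ± 0.09 (SE) for Egfl7 and 5.41 ± 0.10 for Erg. Pecam1, an adhesion protein of endothelial contacts, stood at 707, 665 and 671 CPM in Brain Positive, against 16.97, 16.9 and 16.6 CPM in Brain Input (libraries 1, 2 and 3; CPM is the count scaled to the normalised total of all listed genes, in the usual unit). Erg, an ETS-family factor that maintains endothelial identity, stood at 123, 114 and 109 CPM in Brain Positive, against 2.37, 2.72 and 2.94 CPM in Brain Input. Both genes had all Brain Positive libraries far above all Brain Input libraries, with little spread inside either group.

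The difference reached most of the listed transcriptome. With edgeR's quasi-likelihood test and Benjamini-Hochberg adjustment over 13957 genes, 10896 genes (78.1%) passed an adjusted p of 0.05, 5352 higher (38.3%) and 5544 lower (39.7%) in Brain Positive, and the median of all genes was -0.02 on the log2 scale. With the authors' scaling factors, 5696 were higher and 5181 lower, with a median of 0.04, so that balance depends on the scaling. The table lists a gene when it reached the authors' minimum of 50 counts in all libraries of either group. The 528 genes that reached it in Brain Positive alone and the 609 that reached it in Brain Input alone were listed through 1 group. Such a listing favours a difference in that group's direction, and list counts include these genes. Among genes described below, Edn1, Slc16a4, Kcnq1, Kcnn4, Akr1c14, Ifi44, Gimap5, Cd79a, Psma8 and Trib3 reached the minimum in Brain Positive alone. Ptprc and Tnk1 reached it in Brain Input alone. All 3 Brain Positive values lay above all 3 Brain Input values in 40.0% of genes and below them in 41.1%. The gains were steeper than the losses: 1302 genes (9.33%) were at least 4-fold higher and 80 (0.573%) at least 4-fold lower. The 408 genes that were at least 16-fold higher took 6.27% ± 0.19 of listed counts in Brain Positive and 0.253% ± 0.0166 in Brain Input (SD, n = 3 each). Genes within 2-fold of equality numbered 9348 and took 65.6% ± 0.619 of counts in Brain Positive and 68.4% ± 0.0514 in Brain Input. The 2057 genes that were 2- to 4-fold lower took 9.06% ± 0.419 in Brain Positive and 22.0% ± 0.833 in Brain Input. Estimated counts over all listed genes came to 31111437, 40112343 and 38326386 in Brain Positive and 28128866, 42689793 and 43219831 in Brain Input. The first principal component separated the groups and held 94.7% of the variance. In counts simulated from Brain Input levels and the spread of these libraries, a small share of genes was changed. There, 89% of genes changed 2-fold and 99% of genes changed 4-fold were recovered, and 3.59% of calls were false. Most genes differed in the data, so these rates do not measure the calls made here.

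**Figure D1:**
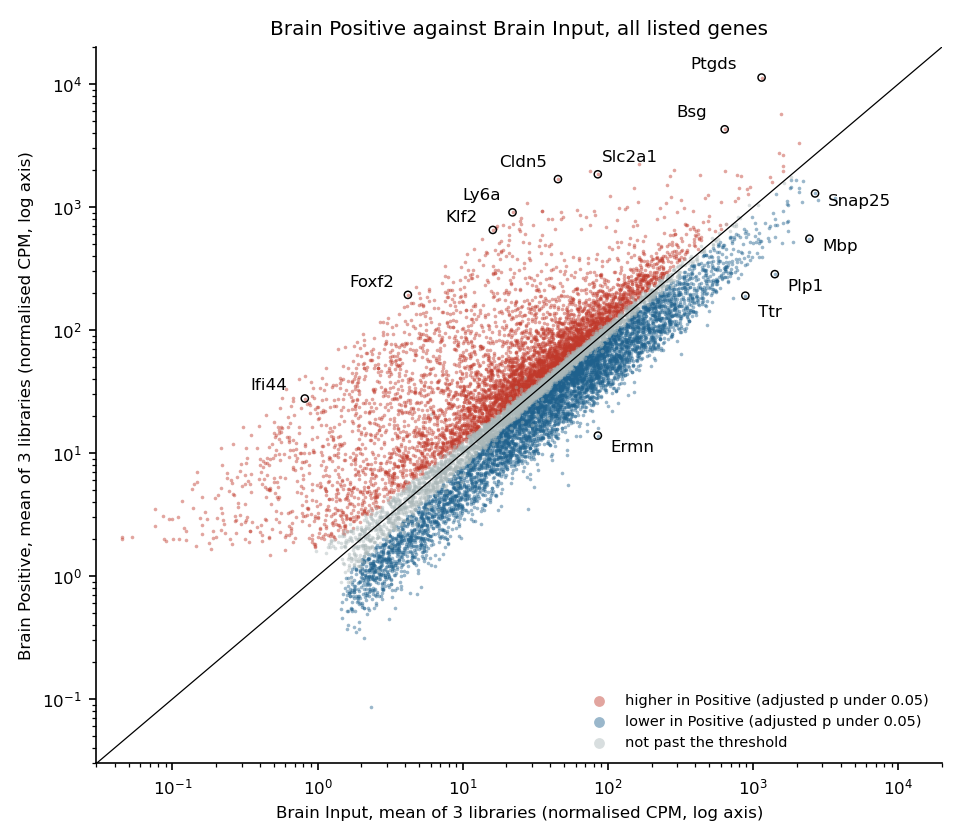
Mean level of each listed gene in Brain Positive (vertical, normalised CPM, log axis) against Brain Input (horizontal, normalised CPM, log axis), coloured by the edgeR call, with a diagonal at equal levels. Genes above the diagonal reach farther from it than genes below it, with 1302 at least 4-fold higher and 80 at least 4-fold lower.

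Per kilobase of exon, the most abundant genes among those at least 4-fold higher were a mixture of endothelial, secreted and membrane products. Ptgds, which makes prostaglandin D synthase, a lipid carrier abundant in the meninges and in oligodendrocytes, led with 6849 CPM per kb in Brain Positive and 694 in Brain Input. Bsg, which encodes basigin, the chaperone of lactate transporters at the barrier, followed with 2363 CPM per kb in Brain Positive and 351 in Brain Input. Cldn5, whose claudin seals brain endothelial contacts, reached 1191 CPM per kb in Brain Positive and 32.0 in Brain Input. Nnat, B2m, Apod, Pltp, Ly6a, Ly6c1, Mgp, Vtn and Laptm4a completed the 12, at 980, 957, 769, 764, 751, 638, 616, 608 and 606 CPM per kb in Brain Positive. Their enrichment differed widely: Ly6a, a surface protein anchored by lipid, was 41.3-fold higher, and Laptm4a, a lysosomal membrane protein, was 4.27-fold higher. Pltp, the phospholipid transfer protein of plasma, stood at 2106, 1921 and 1849 CPM in Brain Positive, against 89.9, 63.6 and 72.2 CPM in Brain Input. All its Brain Positive libraries lay far above all its Brain Input libraries.

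Most listed junction genes were higher. Of 15 tight junction genes, 10 were higher and 3 lower in Brain Positive (median log2 fold change 2.33). Cldn5 stood at 1845, 1704 and 1509 CPM in Brain Positive, against 58.3, 37.7 and 39.8 CPM in Brain Input, a log2 fold change of 5.22 ± 0.17 (edgeR adjusted p 2.66e-09). Lsr, which encodes angulin-1 of tricellular contacts, and Ocln, which encodes occludin, followed at 5.09 ± 0.11 and 4.28 ± 0.10. Cgn, which encodes cingulin, an adaptor of epithelial tight junctions, went the other way at 4.59, 3.74 and 4.43 CPM in Brain Positive, against 6.58, 8.83 and 10.1 CPM in Brain Input, with no overlap. Of 13 adherens and endothelial junction genes, 11 were higher, and the neuronal cadherin gene Cdh2 was lower (-0.96 ± 0.07).

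Receptors of the VEGF, angiopoietin and Tie systems were higher and their brain-derived ligand lower. Of 14 genes, 12 were higher and 1 lower (median 3.73). Flt1, which encodes VEGF receptor 1, stood at 747, 652 and 696 CPM in Brain Positive, against 16.7, 14.98 and 20.1 CPM in Brain Input (5.34 ± 0.12), and Tek and Tie1, the angiopoietin receptor and its partner, at 5.27 ± 0.10 and 5.26 ± 0.07. Vegfa, the main VEGF ligand, made by glia and neurons, stood at 37.5, 36.1 and 43.96 CPM in Brain Positive, against 82.1, 86.9 and 89.4 CPM in Brain Input, with all Brain Positive libraries below all Brain Input libraries. Vegfc and Angpt2, ligands that endothelial cells can make, were higher at 3.34 ± 0.12 and 4.69 ± 0.17.

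The same split of receiving and sending parts showed in the WNT list, where 15 of 18 genes were higher and 3 lower (median 3.26). The genes that were lower were Wnt7a, Wnt7b and Ndp, whose products are the ligands that neural cells send to brain vessels, at -1.13 ± 0.09, -1.07 ± 0.09 and -0.98 ± 0.16. The co-receptor genes Gpr124 and Reck, which lend endothelial cells their response to WNT7, were higher at 4.34 ± 0.11 and 3.76 ± 0.09, and the receptor gene Fzd4 at 3.86 ± 0.12. The pathway's feedback inhibitor genes Apcdd1 and Notum were higher at 4.60 ± 0.10 and 4.49 ± 0.15. Apcdd1 stood at 497, 486 and 501 CPM in Brain Positive, against 20.5, 17.8 and 22.9 CPM in Brain Input, and the groups did not overlap.

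BMP, TGF-beta and Notch genes were mostly higher as well. Of 19 BMP and TGF-beta genes, 16 were higher and 1 lower (median 3.21). The receptor genes Eng and Acvrl1, mutated in people with hereditary haemorrhagic telangiectasia, were higher at 5.06 ± 0.08 and 4.92 ± 0.10, as was Smad6, an inhibitor of the pathway (4.90 ± 0.12). Bmp6, a ligand gene known from liver endothelium, stood at 312, 374 and 300.4 CPM in Brain Positive, against 17.2, 15.1 and 16.1 CPM in Brain Input. Of 14 Notch pathway genes, 11 were higher and 1 lower (median 1.34). Dll4, the ligand of arterial and sprouting endothelium, and Notch4, an endothelial receptor, were higher at 4.74 ± 0.11 and 4.29 ± 0.12, and Notch3, the receptor of mural cells, was lower at -1.01 ± 0.20.

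**Figure D2:**
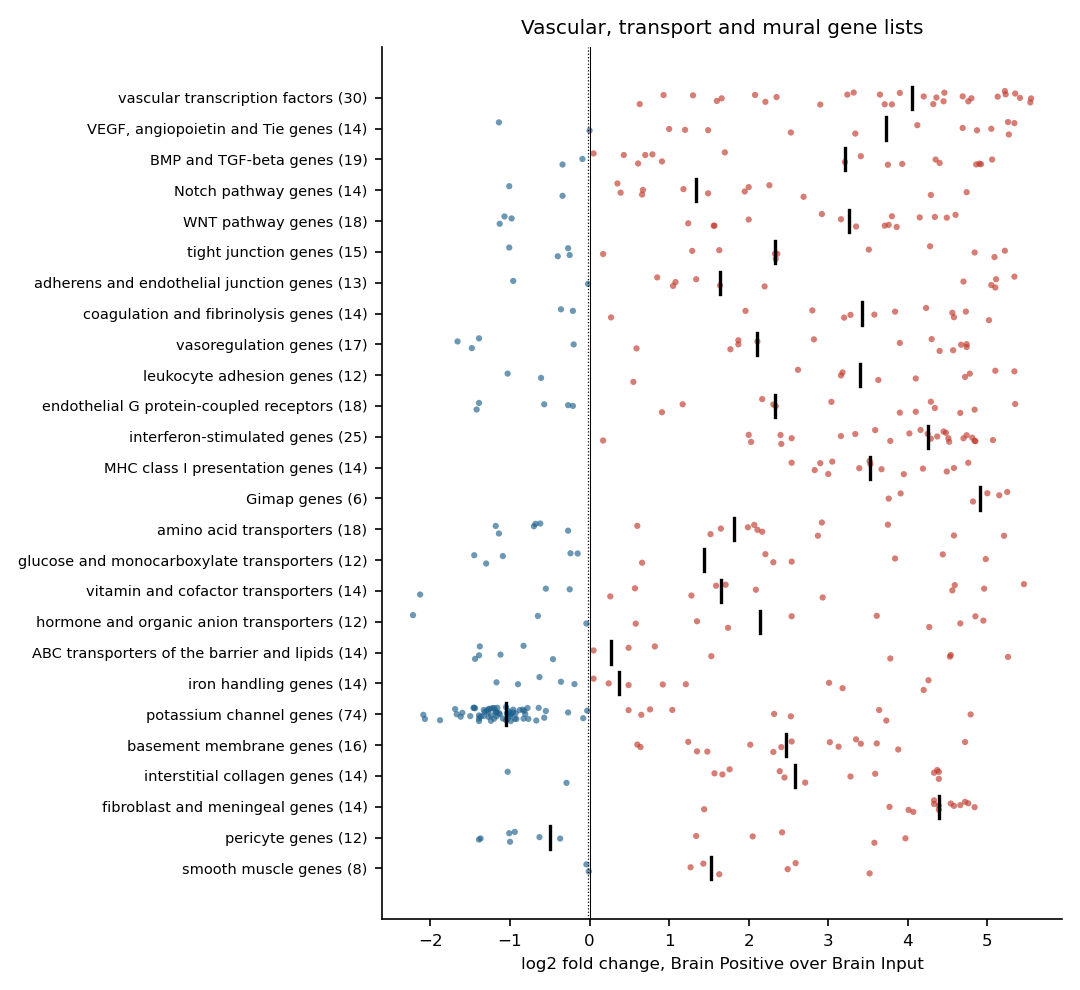
Log2 fold change, Brain Positive over Brain Input (horizontal), of each measured member of vascular, transport and mural gene lists (rows, number measured in brackets), with a bar at each list's median and a dotted line at the median of all genes. The interferon-stimulated and Gimap lists lie wholly above 0, and the potassium channel genes lie mostly below it.

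All 30 measured vascular transcription factor genes were higher in Brain Positive (median 4.05), among them 3 that met the authors' minimum in Brain Positive alone. Their summed share was 0.517%, 0.472% and 0.477% of listed counts in Brain Positive, against 0.0498%, 0.0466% and 0.0470% in Brain Input. The forkhead factors Foxf2, Foxq1 and Foxc1, known from vessel and meningeal development, were higher at 5.55 ± 0.15, 5.22 ± 0.09 and 4.76 ± 0.10. Sox17, a factor of arterial endothelium, stood at 5.13 ± 0.09. The flow-responsive factor Klf2 had 766, 601 and 587 CPM in Brain Positive, against 20.9, 12.9 and 14.6 CPM in Brain Input, and its relative Klf4 had 283, 182 and 182 CPM in Brain Positive, against 7.71, 4.00 and 5.75 CPM in Brain Input. Brain Positive library 1 was highest for both KLF genes, and the groups stayed far apart. The smallest gain was that of Ets2, a widely expressed ETS factor, at 0.63 ± 0.08.

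Genes that keep blood fluid and set vessel tone moved with the endothelium. Of 14 coagulation and fibrinolysis genes, 11 were higher and none was lower by edgeR's adjusted p (median 3.43). Thbd, which encodes thrombomodulin, the cofactor that turns thrombin to an anticoagulant role, stood at 390, 497 and 462 CPM in Brain Positive, against 17.3, 17.2 and 22.6 CPM in Brain Input. Mmrn2, an endothelial matrix protein, and Vwf, the platelet tether stored in endothelial granules, were higher at 5.02 ± 0.11 and 4.73 ± 0.11. Of 17 vasoregulation genes, 13 were higher and 3 lower. Nos3, the endothelial nitric oxide synthase, and the endothelin genes Edn1 and Edn3 were higher at 4.57 ± 0.09, 4.74 ± 0.17 and 4.74 ± 0.14. Gucy1a3 and Gucy1b3, which encode the subunits of soluble guanylate cyclase, the receptor of nitric oxide, were lower at -1.66 ± 0.09 and -1.48 ± 0.11.

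Adhesion molecules and receptors at the blood-facing surface were higher in most cases. Of 12 leukocyte adhesion genes, 10 were higher, and the lower ones were Cx3cl1 (-0.61 ± 0.06), a chemokine of neurons, and Darc (-1.03 ± 0.07), the atypical chemokine receptor. Emcn, the endothelial sialomucin endomucin, stood at 203, 196 and 199.7 CPM in Brain Positive, against 5.42, 4.85 and 4.63 CPM in Brain Input. The inducible adhesion receptors Icam1 and Vcam1 were higher at 4.10 ± 0.12 and 2.62 ± 0.10. Of 18 endothelial G protein-coupled receptor genes, 13 were higher, led by Eltd1 (5.35 ± 0.12), Gpr116 (4.84 ± 0.06) and Gpr182 (4.66 ± 0.15). Among 12 genes of sphingosine 1-phosphate and phospholipids, 10 were higher, from Acer2, a ceramidase gene, at 5.16 ± 0.11 to Spns2, the exporter of sphingosine 1-phosphate, at 0.77 ± 0.11, and in smaller steps below that. Mfsd2a, which carries lipids with docosahexaenoic acid into brain, stood at 168, 160.4 and 169 CPM in Brain Positive, against 21.8, 21.96 and 24.7 CPM in Brain Input.

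Solute carriers as a family passed the threshold about as often as all genes did, but with more of the larger differences. In all, 110 of 265 measured Slc genes were higher and 117 lower in Brain Positive, shares close to the 38.3% and 39.7% of all genes. At least 2-fold higher were 72 and at least 2-fold lower 55, shares above the 17.7% and 15.3% of all genes. Slc2a1, the glucose transporter GLUT1, stood at 1710, 1810 and 2017 CPM in Brain Positive, against 88.4, 77.1 and 90.1 CPM in Brain Input, and the neuronal glucose transporter gene Slc2a3 at 72.8, 57.3 and 68.5 CPM in Brain Positive, against 152, 167 and 169 CPM in Brain Input. The monocarboxylate transporter genes Slc16a4 and Slc16a1 were higher at 4.98 ± 0.10 and 2.31 ± 0.11. Of 18 amino acid transporter genes, 12 were higher and 6 lower. Slc38a5, a glutamine and serine carrier, and Slc7a5, the carrier of large neutral amino acids and of levodopa, were higher at 5.21 ± 0.25 and 3.75 ± 0.15. The glial glutamate transporter genes Slc1a2 and Slc1a3 were lower at -1.18 ± 0.07 and -0.70 ± 0.07.

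ABC transporter genes went both ways. Of 14, 7 were higher and 6 lower (median 0.27), shares near the 38.3% and 39.7% of all genes. Abcb1a, the P-glycoprotein of the mouse barrier, stood at 758, 690.5 and 709 CPM in Brain Positive, against 22.8, 17.04 and 16.7 CPM in Brain Input. Abcg2, the breast cancer resistance protein, and Abcc4 were higher at 4.53 ± 0.11 and 3.78 ± 0.09. Abca2 and Abcd2, which handle lipids in glia and neurons, were lower at -1.44 ± 0.09 and -1.38 ± 0.09. The organic anion carriers Slco1a4 and Slco1c1, of which Slco1c1 moves thyroid hormone, were higher at 4.95 ± 0.11 and 4.27 ± 0.10. Vitamin carriers gained as well, with 10 of 14 higher: Slc52a3 for riboflavin at 5.46 ± 0.20, Slc19a3 for thiamine at 4.56 ± 0.16 and Mfsd7c, a choline carrier also known as Flvcr2, at 4.96 ± 0.12.

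Iron genes did not move together. Of 14, 8 were higher and 5 lower (median 0.36). Slc40a1, which encodes ferroportin, the iron exporter, stood at 140.1, 128 and 152 CPM in Brain Positive, against 7.33, 7.11 and 7.46 CPM in Brain Input. Tfrc, which encodes the transferrin receptor used to ferry antibodies across the barrier, stood at 85.4, 75.3 and 82.05 CPM in Brain Positive, against 70.95, 85.4 and 78.2 CPM in Brain Input, overlapping values with a log2 fold change of 0.05 ± 0.08 (edgeR adjusted p 0.608), or -0.02 without Brain Input library 1. Trf, the transferrin gene of oligodendrocytes and choroid plexus, was lower at -1.17 ± 0.11. In the vesicle list, 12 of 17 genes were higher. The caveola genes Cav1 and Ptrf, which encode caveolin 1 and cavin 1, were higher at 4.67 ± 0.11 and 4.85 ± 0.09.

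Potassium channel genes were mostly lower. Of 74 measured Kcn genes, 9 were higher and 63 lower (median -1.05). Kcnq1, a voltage-gated channel gene known from heart and inner ear, stood at 25.4, 25.2 and 22.7 CPM in Brain Positive, against 0.925, 0.686 and 1.03 CPM in Brain Input. Kcnq1 and Kcnn4 met the authors' minimum in Brain Positive alone, so the listing favoured their direction. Of the 68 genes of the family that met it in both groups, 7 were higher and 59 lower. Its accessory subunit gene Kcne4 stood at 50.3, 26.2 and 19.5 CPM in Brain Positive, against 3.22, 2.49 and 1.64 CPM in Brain Input, with Brain Positive library 1 highest and the groups apart. Kcnk5, a background-current channel gene, was higher at 3.64 ± 0.24, and Kcnn4, the calcium-activated channel of endothelium, at 2.32 ± 0.24. Kcnj2, the inward rectifier of brain capillaries, gained less, at 0.76 ± 0.12. Outside this family, Slc39a8, a zinc and manganese importer, and Atp10a, a phospholipid flippase, were higher at 4.79 ± 0.08 and 4.53 ± 0.14.

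Matrix genes were higher almost throughout. All 16 measured basement membrane genes were higher (median 2.48), with shares of 0.413%, 0.503% and 0.504% of listed counts in Brain Positive, against 0.127%, 0.113% and 0.124% in Brain Input. Fn1, which encodes fibronectin, stood at 841, 989.8 and 947 CPM in Brain Positive, against 29.3, 34.7 and 41.1 CPM in Brain Input, and Hspg2, which encodes perlecan, at 3.88 ± 0.13. Col4a1 and Lama4, the collagen IV and laminin chains of vessel walls, were higher at 3.13 ± 0.14 and 3.35 ± 0.11. Of 14 interstitial collagen genes, 12 were higher and 1 lower. Among proteases and inhibitors, 15 of 17 were higher, and the integrin chains Itga1 and Itga6, receptors for collagen and laminin, were higher at 3.84 ± 0.15 and 3.21 ± 0.14.

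Markers of fibroblasts and meninges moved with these matrix genes. All 14 measured members were higher (median 4.39), and their summed share was 0.597%, 0.807% and 0.675% of listed counts in Brain Positive, against 0.0395%, 0.0396% and 0.0434% in Brain Input. Dcn, which encodes decorin of fibroblast matrix, stood at 366, 420.4 and 346 CPM in Brain Positive, against 28.2, 20.5 and 21.8 CPM in Brain Input. Col1a1, the collagen I chain, had 311, 505 and 377 CPM in Brain Positive, against 18.9, 20.1 and 20.2 CPM in Brain Input. Brain Positive library 2 was highest for both genes, as it was for the list's share, and none of the list's members was near 0 in Brain Positive. Pdgfra, a receptor of fibroblasts and of oligodendrocyte precursors, gained least (1.44 ± 0.13). The part of these cells in the matrix values was not tested. In whole-tissue RNA, fewer cells of a type and less RNA per cell cannot be told apart.

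Most listed guidance genes and regulators of small GTPases were higher. Of 23 guidance genes, 18 were higher and 4 lower, with Sema3g, a semaphorin of arterial endothelium, at 5.27 ± 0.08, Robo4, the endothelial roundabout receptor, at 5.18 ± 0.08 and Ephb4, the venous ephrin receptor, at 4.57 ± 0.09. The genes that were lower were Epha5, Sema6d, Plxna4 and Epha4, all known from neurons, at -1.35 ± 0.11, -1.05 ± 0.08, -0.98 ± 0.09 and -0.87 ± 0.14. Of 20 such regulators, 14 were higher, led by Rhoj (4.16 ± 0.10), Arhgap29 (4.13 ± 0.08) and Rasip1 (4.04 ± 0.07), which act on endothelial shape and lumen formation.

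Interferon-stimulated genes formed a large group among the gains, although the labels name no infection or interferon treatment. Of 25 measured genes, 24 were higher (median 4.25), and Stat2, a signalling factor upstream of the others, stood at 0.17 ± 0.08 with an edgeR adjusted p of 0.0634. Stat2 passed with the authors' factors (0.0177), with the replicate block (0.0457), without Brain Positive library 2 (0.0319) and without Brain Input library 1 (0.046). Of the 22 that met the authors' minimum in both groups, 21 were higher. The share of the list was 0.246%, 0.231% and 0.211% of listed counts in Brain Positive, against 0.0271%, 0.0205% and 0.0214% in Brain Input. Ifit1, which binds foreign RNA, stood at 85.8, 62.2 and 53.02 CPM in Brain Positive, against 5.96, 2.93 and 2.74 CPM in Brain Input. Rsad2, which encodes the antiviral enzyme viperin, had 52.8, 36.4 and 35.95 CPM in Brain Positive, against 2.81, 1.58 and 1.39 CPM in Brain Input. In both genes library 1 was highest in Brain Positive and in Brain Input, and the groups did not overlap. Ifitm3, which blocks viral entry, was higher at 4.85 ± 0.14, and Ifi44 at 5.07 ± 0.14.

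The 250 bases upstream of 3 of these genes are shown because each holds GAAA, any 2 bases and GAAA again, the core of the interferon-stimulated response element, on either strand (RefSeq, GRCm38.p6, capitals at the match). Of 20 genes of the list with an entry, 11 held a match (55.0%), against 2.55% of 11030 promoters of listed genes and 9.44% of the 286 belonging to genes at least 16-fold higher. Ifit1 lies on chr19:34640639-34640888 on the + strand, Isg15 on chr4:156200819-156201068 on the - strand and Rsad2 on chr12:26456453-26456702 on the - strand. Ifit1 held 2 matches, Isg15 held 3 that overlap each other, and Rsad2 held 1. A match is a description of letters and not a measured binding site.
Ifit1: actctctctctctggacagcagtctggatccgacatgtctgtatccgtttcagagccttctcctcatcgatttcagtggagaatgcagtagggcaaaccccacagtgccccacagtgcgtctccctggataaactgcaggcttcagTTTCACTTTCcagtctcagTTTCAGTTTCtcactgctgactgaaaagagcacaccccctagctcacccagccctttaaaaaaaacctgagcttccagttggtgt
Isg15: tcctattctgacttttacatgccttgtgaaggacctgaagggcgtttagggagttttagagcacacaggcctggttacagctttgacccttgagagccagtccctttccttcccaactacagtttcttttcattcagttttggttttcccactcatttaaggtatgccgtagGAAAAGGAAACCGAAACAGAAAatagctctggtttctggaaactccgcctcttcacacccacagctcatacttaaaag
Rsad2: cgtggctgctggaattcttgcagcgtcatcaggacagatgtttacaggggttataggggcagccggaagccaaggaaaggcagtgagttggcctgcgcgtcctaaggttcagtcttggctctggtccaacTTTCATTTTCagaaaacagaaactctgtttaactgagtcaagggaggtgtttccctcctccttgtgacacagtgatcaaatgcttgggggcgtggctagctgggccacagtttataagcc

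The same windows of Flt1, Tie1 and Abcb1a are shown for AGGAAG, a core recognised by ETS factors such as ERG, since the 3 genes were among the strongest gains of the receptor and transporter lists (both strands, capitals at the match). AGGAAG stood in 35.3% of the 286 promoters of genes at least 16-fold higher, against 27.4% of all 11030, so it was common everywhere. The forkhead core TAAACA stood in 14.0% against 7.44%, the SOX core ACAAT in 25.2% against 17.9%, and the KLF core CCACACCC in 3.5% against 3.29%. In promoters of genes at least 2-fold higher, the shares were 30.3% for the ETS core, 7.62% for the forkhead core and 17.2% for the SOX core, against 29.0%, 8.48% and 19.4% at least 2-fold lower. Of the VEGF, angiopoietin and Tie list, 27.3% of 11 promoters held AGGAAG. The shares were 16.7% of 18 vascular transcription factor promoters and 20.0% of 20 interferon-stimulated ones, below the 27.4% of all. Matches to different cores were counted separately and may overlap. Promoters of genes at least 16-fold higher held a median of 55.6% G and C, against 60.0% over all 11030, so the bases the windows are made of differed too. Flt1 lies on chr5:147726012-147726261 on the - strand, Tie1 on chr4:118489850-118490099 on the - strand and Abcb1a on chr5:8566841-8567090 on the + strand.
Flt1: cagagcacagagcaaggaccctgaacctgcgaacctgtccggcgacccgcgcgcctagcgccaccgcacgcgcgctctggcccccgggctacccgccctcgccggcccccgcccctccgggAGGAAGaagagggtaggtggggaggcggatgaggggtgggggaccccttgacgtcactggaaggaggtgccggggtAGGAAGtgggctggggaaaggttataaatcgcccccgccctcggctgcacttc
Tie1: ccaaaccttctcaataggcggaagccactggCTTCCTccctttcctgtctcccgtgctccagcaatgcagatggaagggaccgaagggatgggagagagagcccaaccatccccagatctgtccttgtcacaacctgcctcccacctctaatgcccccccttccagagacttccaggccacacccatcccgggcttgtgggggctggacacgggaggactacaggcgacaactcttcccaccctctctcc
Abcb1a: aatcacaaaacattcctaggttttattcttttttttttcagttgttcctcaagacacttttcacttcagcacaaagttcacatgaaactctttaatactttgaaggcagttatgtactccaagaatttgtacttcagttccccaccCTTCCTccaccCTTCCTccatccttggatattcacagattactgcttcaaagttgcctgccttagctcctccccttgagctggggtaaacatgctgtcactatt

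Antigen presentation and immune GTPase genes were higher with them. All 14 measured genes of MHC class I presentation were higher (median 3.53). Psmb9 and Psmb8, the catalytic subunits of the immunoproteasome, were higher at 4.76 ± 0.18 and 4.19 ± 0.21, and H2-K1, a classical class I chain, at 3.95 ± 0.13, with the caution that reads of near-identical H2 genes can be split between them. All 6 Gimap genes, GTPases known from lymphocytes, were higher (median 4.91), and Gimap5 stood at 25.6, 24.4 and 29.97 CPM in Brain Positive, against 0.411, 0.801 and 0.808 CPM in Brain Input. Of the 6, Gimap4, Gimap5 and Gimap9 met the authors' minimum in Brain Positive alone, so the listing favoured their direction. The other 3 met it in both groups. Lymphocyte markers were sparse: Ptprc, the CD45 gene of blood-derived cells, was lower at -2.05 ± 0.23. Cd79a, a B cell receptor chain, had 10.4, 18.9 and 14.5 CPM in Brain Positive, against 0.137, 0.595 and 0.898 CPM in Brain Input, with all Brain Positive libraries above all Brain Input libraries.

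**Figure D3:**
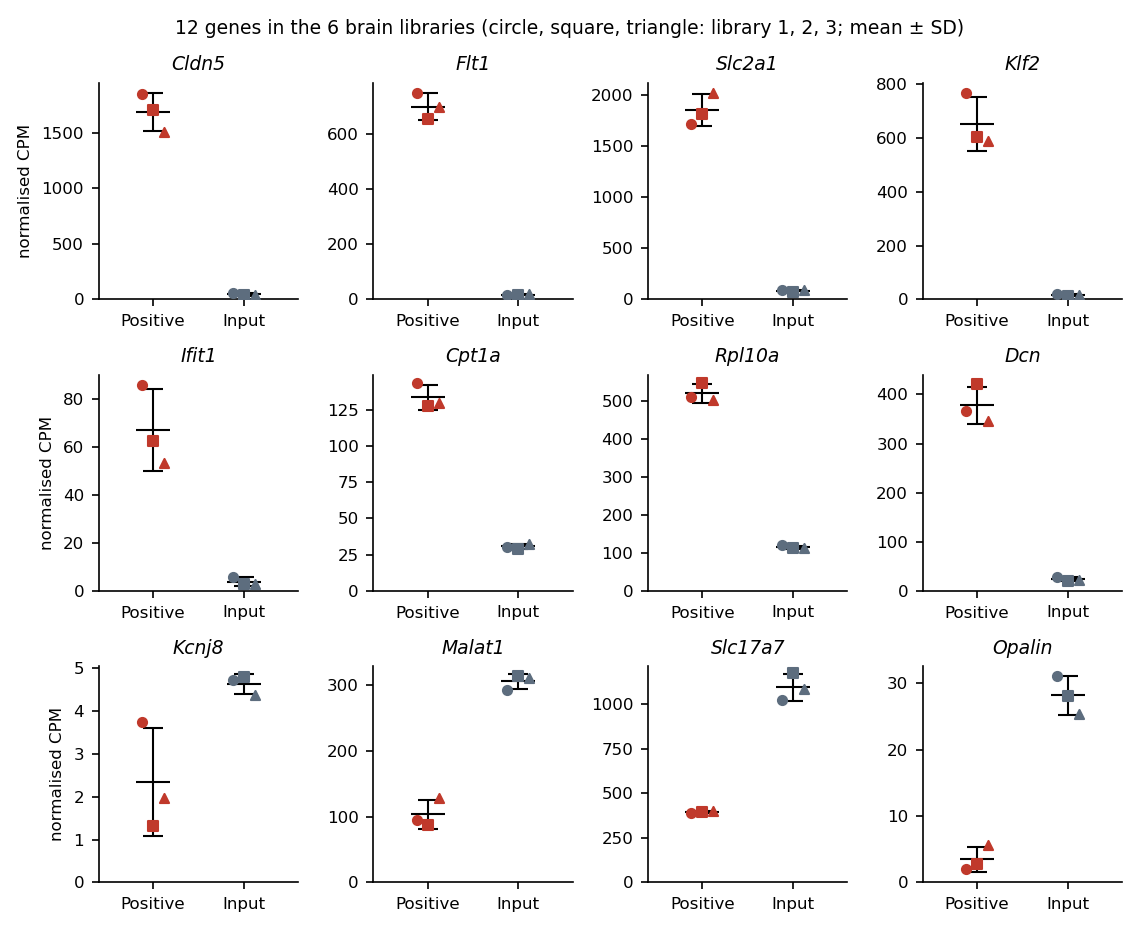
Normalised CPM (vertical, starting at 0) of 12 genes in the 3 Brain Positive (left in each panel) and 3 Brain Input libraries (right), with the mean and SD. Rpl10a lies between 502 and 548 CPM in Brain Positive and between 113 and 120 CPM in Brain Input, and Opalin is highest in Brain Positive library 3 within that group.

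Metabolic genes parted by pathway. Of 16 fatty acid oxidation genes, 15 were higher and 1 lower (median 1.14). Cpt1a, the carnitine transferase that admits fatty acids to mitochondria, stood at 144, 128 and 129 CPM in Brain Positive, against 30.5, 29.2 and 32.5 CPM in Brain Input. Its neuronal relative Cpt1c was the exception, at 45.5, 46.2 and 48.1 CPM in Brain Positive, against 111, 113 and 112 CPM in Brain Input. Cpt2 and Hadh, the next steps of the path, were higher at 1.65 ± 0.12 and 1.63 ± 0.08. The groups did not overlap for any of these 4 genes.

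Glycolysis, cholesterol synthesis and serine synthesis were lower. Of 18 glycolysis genes, 1 was higher and 13 lower (median -0.47), with the neuronal enolase gene Eno2 lowest at -1.10 ± 0.07 and the lactate dehydrogenase gene Ldha higher at 0.32 ± 0.06. Of 21 cholesterol synthesis genes, 1 was higher and 17 lower (median -0.52). Ebp, a sterol isomerase, was the higher one at 0.88 ± 0.10. Among 12 serine, glycine and one-carbon genes, 7 were lower and none was higher by edgeR's adjusted p. The serine synthesis genes Psat1 and Phgdh, strong in astrocytes, stood at -1.46 ± 0.12 and -0.98 ± 0.07. Of 19 genes of the citric acid cycle, 11 were lower and 3 higher (median -0.22), against 39.7% and 38.3% of all genes.

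Redox and xenobiotic genes were mostly higher. Of 17 glutathione and NRF2 target genes, 13 were higher (median 0.72). Nfe2l2, which encodes NRF2 itself, stood at 88.4, 89.0 and 95.9 CPM in Brain Positive, against 12.1, 11.4 and 12.8 CPM in Brain Input, and the cystine carrier gene Slc7a11 at 2.92 ± 0.10. Sod2, the mitochondrial superoxide dismutase, was lower at -0.26 ± 0.06. Of 18 xenobiotic and steroid enzymes, 15 were higher, among them Akr1c14 (5.53 ± 0.19), Cyp1b1 (4.06 ± 0.15) and the monoamine oxidase gene Maoa (2.02 ± 0.07). Akr1c14 and Fmo2 met the authors' minimum in Brain Positive alone, and of the 16 that met it in both groups 13 were higher. Of 13 genes of fatty acid uptake, 4 were higher and 7 lower, with the HDL receptor gene Scarb1 highest at 2.50 ± 0.06.

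Genes of the translation machinery were shifted as a block, by less than the endothelial genes. Of 81 cytosolic ribosomal protein genes, 80 were higher and none lower (median 0.81), and their share was 2.71%, 2.53% and 2.60% of listed counts in Brain Positive, against 1.71%, 1.44% and 1.43% in Brain Input. Rpl10a, whose protein carries the tag, showed the largest difference of the list with 509, 548 and 502 CPM in Brain Positive, against 119.7, 113 and 113 CPM in Brain Input (2.17 ± 0.06), and reads of the tagged copy and of the native gene cannot be told apart. Rplp0, a stalk protein of the large subunit, was nearer the centre at 0.82 ± 0.07. Of 62 initiation and elongation factor genes, 35 were higher and 6 lower. Eif4ebp1, a brake on initiation, was highest at 2.73 ± 0.16, and Eef1a2, the elongation factor of neurons and muscle, lowest at -1.12 ± 0.06, while its widely expressed relative Eef1a1 stood at 0.86 ± 0.06. Cytosolic aminoacyl-tRNA synthetase genes leaned down, with 12 of 20 lower and 4 higher.

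Secretory pathway genes were higher with little exception. Of 23 ER chaperone and translocon genes, 22 were higher (median 0.68). Sec61b, a subunit of the translocation channel, stood at 58.1, 60.97 and 56.01 CPM in Brain Positive, against 22.2, 19.3 and 17.7 CPM in Brain Input, and P4hb, a protein disulfide isomerase, at 1.39 ± 0.07. Hspa5, the chaperone BiP, gained less at 0.48 ± 0.06. Mitochondrial ribosomal protein genes moved little (median 0.13), with 28 of 76 higher and 9 lower, as did respiratory chain genes (median 0.11), with 26 of 79 higher and 15 lower. In both lists the higher share was near the 38.3% of all genes and the lower share below the 39.7%. Of 47 proteasome genes, 26 were higher and 6 lower, against those same shares of all genes. Their largest gains were in Psma8 (4.79 ± 0.37), a subunit gene known from testis, Psmb9 and Psmb8.

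**Figure D4:**
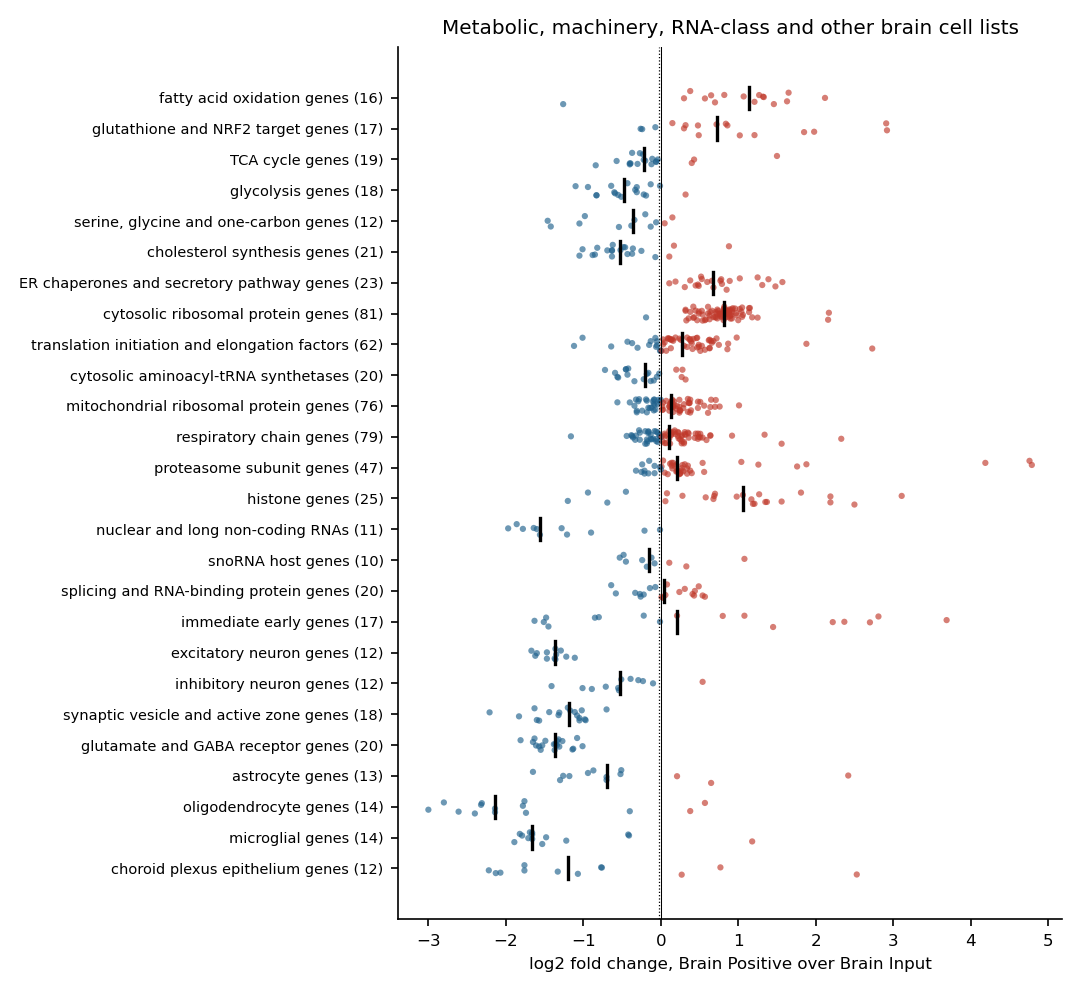
Log2 fold change, Brain Positive over Brain Input (horizontal), of each measured member of metabolic, machinery, RNA-class and brain cell lists (rows, number measured in brackets), with a bar at each list's median and a dotted line at the median of all genes. The 81 cytosolic ribosomal protein genes form a narrow group around 0.81, and the oligodendrocyte genes reach the lowest values.

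Of 13 ATF4 target genes, 8 were higher and 3 lower: the stress regulators Trib3 and Nupr1 stood at 3.82 ± 0.22 and 4.15 ± 0.10, and the asparagine synthetase gene Asns at -1.11 ± 0.06. Of 17 immediate early genes, 8 were higher and 6 lower, near the 38.3% and 39.7% of all genes. Zfp36, whose product speeds mRNA decay, stood at 47.8, 49.1 and 48.9 CPM in Brain Positive, against 2.88, 3.59 and 4.67 CPM in Brain Input. Atf3, a stress factor, had 35.1, 11.8 and 9.54 CPM in Brain Positive, against 3.98, 1.37 and 2.81 CPM in Brain Input, with Brain Positive library 1 far above the others, and the median of the list was 0.21 with that library and -0.10 without it. The activity genes of neurons Arc and Egr1 were lower at -1.48 ± 0.09 and -1.45 ± 0.09. Of 14 glucocorticoid-response genes, 9 were higher, among them Fkbp5 (1.79 ± 0.22) and Tsc22d3 (1.73 ± 0.08), and none was lower by edgeR's adjusted p.

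Cell cycle inhibitors were among the gains of a tissue with little division. Of 13 cell cycle genes, 11 were higher and 2 lower. Cdkn1c, the inhibitor p57, stood at 93.1, 128 and 106 CPM in Brain Positive, against 12.99, 10.3 and 10.9 CPM in Brain Input, and Cdkn1a, the inhibitor p21, at 2.68 ± 0.12. The cyclin gene Ccnd3 was higher at 2.94 ± 0.08 and Ccna2, the cyclin of DNA replication, lower at -1.15 ± 0.19. Of 25 histone genes, 19 were higher and 4 lower. Hist1h1c, which encodes a linker histone whose RNA can be polyadenylated, stood at 364, 264 and 210.4 CPM in Brain Positive, against 44.9, 26.03 and 26.7 CPM in Brain Input, again with Brain Positive library 1 highest.

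The listed nuclear and long non-coding RNAs were lower, with 1 exception. Of 11 nuclear and long non-coding RNAs, 10 were lower and none was higher by edgeR's adjusted p (median -1.56), with shares of 0.274%, 0.224% and 0.354% of listed counts in Brain Positive, against 0.762%, 0.796% and 0.783% in Brain Input. Malat1, a nuclear speckle RNA, stood at 95.04, 87.1 and 129 CPM in Brain Positive, against 293, 314 and 311 CPM in Brain Input, and Meg3, an imprinted RNA of neurons, at 1146, 856 and 1541 CPM in Brain Positive, against 3734, 3704 and 3643 CPM in Brain Input. Brain Positive library 3 was highest in its group for both, below every Brain Input library. Tug1, another long non-coding RNA, did not pass (-0.01 ± 0.08, edgeR adjusted p 0.890). Of 10 snoRNA host genes, whose introns hold small nucleolar RNAs, 1 was higher and 3 lower (median -0.15). Over all genes these shares were 38.3% and 39.7%. Over all 398 listed long non-coding RNAs the median log2 fold change was -0.50, with 12.3% at least 2-fold higher and 26.6% at least 2-fold lower, against -0.01, 17.9% and 14.9% of 13439 protein-coding genes.

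Exon length ran with the difference. In 5 bins of equal gene number, from the shortest to the longest, the median log2 fold change was 0.22, 0.08, -0.03, -0.10 and -0.27. The share of genes at least 2-fold higher was 23.3% in the shortest bin and 12.2% in the longest. Length was not part of the fit, and its part in the result was not tested. By the Gene Ontology terms in the deposited table, picked with values in view, 61.2% of immune response genes, 57.0% of basement membrane genes and 48.7% of angiogenesis genes were at least 2-fold higher, against 17.7% of all genes. At least 2-fold lower were 59.3% of genes of chemical synaptic transmission, 52.6% of genes of learning and 49.2% of synapse genes, against 15.3% of all genes. Of mRNA processing genes, 4.86% were at least 2-fold higher and 4.86% at least 2-fold lower.

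Markers of neurons were lower as a body, by less than myelin. All 12 excitatory neuron genes were lower (median -1.37), as were all 18 synaptic vesicle and active zone genes and all 20 glutamate and GABA receptor genes (medians -1.19 and -1.36). Slc17a7, the vesicular glutamate transporter of cortex, stood at 389, 397 and 399.9 CPM in Brain Positive, against 1025, 1176 and 1089 CPM in Brain Input. Pclo, which encodes the active zone protein piccolo, was lowest of the synaptic list at -2.21 ± 0.19. Synaptic genes took 0.662%, 0.582% and 0.597% of listed counts in Brain Positive, against 1.28%, 1.35% and 1.31% in Brain Input. Of 12 inhibitory neuron genes, 6 were lower (median -0.52), nearer the 39.7% of all genes, and of 18 neuropeptide genes 11.

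The most abundant Input genes per kilobase among those at least 2-fold lower were neuronal, myelin and choroid plexus genes. Nrgn, a calmodulin-binding protein of cortical neurons, stood at 325 CPM per kb in Brain Positive and 793 in Brain Input. Eef1a2 and Ttr, the transthyretin of choroid plexus, followed with 356 and 160 CPM per kb in Brain Positive, against 774 and 746 in Brain Input. Aplp1, Stmn3, Tubb4a, Uchl1, Snap25, Camk2n1, Ncdn and Syp, also of the 12, stood at 212, 276, 175, 191, 190, 169, 153 and 148 CPM per kb in Brain Positive, against 574, 568, 518, 435, 393, 385, 380 and 333 in Brain Input.

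Glial markers were lower to different degrees. Of 14 oligodendrocyte genes, 12 were lower and 2 higher (median -2.14). Opalin, a myelin membrane protein, stood at 2.06, 2.73 and 5.66 CPM in Brain Positive, against 31.1, 28.1 and 25.3 CPM in Brain Input. Their share was 0.161%, 0.151% and 0.242% of listed counts in Brain Positive, against 0.609%, 0.549% and 0.562% in Brain Input. Brain Positive library 3 was highest in that group, and without it the list's median was -2.52. Of 14 microglial genes, 13 were lower, and Tmem119 alone was higher, with 45.2, 60.2 and 47.1 CPM in Brain Positive, against 26.2, 19.5 and 21.96 CPM in Brain Input. Of 13 astrocyte genes, 10 were lower, and the connexin genes Gjb6 and Gja1 were higher at 2.42 ± 0.07 and 0.65 ± 0.09.

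Of 12 pericyte genes, 5 were higher and 6 lower, shares near the 38.3% and 39.7% of all genes. Anpep, an aminopeptidase, and Vtn, which encodes vitronectin, were higher at 3.97 ± 0.12 and 3.58 ± 0.12, and the share of the list was 0.131%, 0.177% and 0.144% of listed counts in Brain Positive, against 0.0206%, 0.0197% and 0.0211% in Brain Input, most of it Vtn. Kcnj8, the channel gene that marks brain pericytes, stood at 3.75, 1.31 and 1.98 CPM in Brain Positive, against 4.73, 4.80 and 4.38 CPM in Brain Input, with Brain Positive library 1 highest in its group and the groups apart. Its edgeR adjusted p was 0.0145, and 0.052 without Brain Positive library 3. Abcc9, its partner subunit, and Cspg4 were lower at -1.39 ± 0.25 and -1.36 ± 0.11. Of 8 smooth muscle genes, 6 were higher, with Tagln at 2.59 ± 0.16, and Myh11, the smooth muscle myosin, stood at 2.89, 2.81 and 3.85 CPM in Brain Positive, against 3.50, 2.88 and 3.30 CPM in Brain Input, overlapping values.

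Other neighbours gave smaller lists. Of 12 choroid plexus genes, 9 were lower and 2 higher, with shares of 0.0455%, 0.0509% and 0.0761% of listed counts in Brain Positive, against 0.163%, 0.131% and 0.146% in Brain Input. Kcnj13, a channel gene of choroid plexus, was higher at 2.53 ± 0.17. All 5 erythroid genes were lower (median -2.21), but Brain Input library 1 carried most of their share, which was 0.0227%, 0.0155% and 0.0223% of listed counts in Brain Positive, against 0.0997%, 0.0445% and 0.0550% in Brain Input. Without that library the median was -1.28.

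The genes that met the authors' minimum in Brain Positive alone are given as description. The highest of them in Brain Positive after Npcd were Akr1c14, Gpr81, Slc16a4, A4galt, Fmo2, Prdm6, Cyp2f2, Tbx1 and Dapl1. Gpr81, the lactate receptor now named Hcar1, stood at 64.2, 78.8 and 69.7 CPM in Brain Positive, against 1.68, 1.92 and 2.25 CPM in Brain Input. Dapl1 had 44.03, 36.97 and 38.9 CPM in Brain Positive, against 0.891, 0.458 and 0.876 CPM in Brain Input. Npcd stood at 156, 166 and 182 CPM in Brain Positive, against 362, 0 and 0 CPM in Brain Input, so its Brain Input values rest on library 1 alone. Its log2 fold change was 0.49 with that library and 15.67 without it, a fitted value against no count. Peg3as, the antisense RNA of the imprinted gene Peg3, had 2.76, 1.80 and 3.50 CPM in Brain Positive and no count in any Brain Input library, at least 32.7-fold higher against a floor of 3 counts per library. Whether strand was used in counting is not given in the sources used here, so reads of Peg3as and of Peg3 may not be separate.

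Some of the largest losses were of genes with few counts. Tnk1, a tyrosine kinase gene, stood at 0, 0.180 and 0.0801 CPM in Brain Positive, against 2.23, 2.33 and 2.47 CPM in Brain Input, the lowest fold change of all listed genes (-4.60 ± 0.45). Lrrc17 had 4.12, 3.61 and 8.73 CPM in Brain Positive, against 92.5, 35.8 and 32.3 CPM in Brain Input, with Brain Input library 1 far above the other Input libraries. Ugt8a, the galactosyltransferase of myelin lipids, stood at 4.88, 5.31 and 10.5 CPM in Brain Positive, against 45.8, 47.2 and 52.2 CPM in Brain Input. In all 3 genes the groups did not overlap.

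Set against retina, the brain pull-down differed in how far it parted from its own Input. The difference in log2 fold change, Brain minus Retina, was tested as an interaction in 12 libraries over 12438 genes listed in both tables. Of these, 2482 (20.0%) were higher and 3590 (28.9%) lower in Brain, and the median of all genes was -0.09, or 0.01 with the authors' scaling factors. Retina Positive and Retina Input are groups of their own, so the 2 tissues share no control library. Fold changes in the next paragraphs come from that joint fit.

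Ribosomal protein genes set the tissues apart as a class. Of 81, 80 were higher in Brain than in Retina by the interaction, with median log2 fold changes of 0.79 in Brain and -0.11 in Retina. Rpl10a itself stood at 2.15 in Brain and 0.69 in Retina, a difference of 1.46 ± 0.14 (edgeR adjusted p 8.44e-06). Of 23 ER genes, 15 were higher in Brain and none lower, with medians of 0.66 in Brain and 0.20 in Retina. Of 16 fatty acid oxidation genes, 10 were higher in Brain, against 20.0% of all genes. Cpt1a led them at 2.09 in Brain and 0.07 in Retina (difference 2.03 ± 0.14). Of 24 histone genes, 14 were higher in Brain, with Hist1h1c at 3.08 in Brain and 0.14 in Retina.

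Fibroblast and meningeal genes gave the widest gap between medians of the lists plotted for both tissues. Of 7 listed in both, 6 were higher in Brain, with medians of 4.37 in Brain and -0.06 in Retina. Slc6a13, a GABA and taurine carrier of meninges, stood at 447 ± 71.5 CPM in Brain Positive and 19.01 ± 1.56 CPM in Brain Input (SD, n = 3 each), and at 1.42 ± 0.415 CPM in Retina Positive and 3.68 ± 1.26 CPM in Retina Input. Fmod, the collagen-binding fibromodulin, stood at 729 ± 148 CPM in Brain Positive and 31.7 ± 1.36 CPM in Brain Input, and at 2.75 ± 1.16 CPM in Retina Positive and 3.96 ± 0.581 CPM in Retina Input. Both were many times higher in Brain Positive than in Brain Input. In Retina both were low, and the Positive mean lay below the Input mean. The retina listing used the same minimum, which 874 genes met in Retina Input alone and 329 in Retina Positive alone. For genes as low in Retina Positive as Slc6a13 and Fmod, such a listing can favour a Positive mean below Input and a wider gap from Brain. The retinal directions and the gaps above are therefore given as description only.

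Receptors and immune lists differed by member. Kdr, which encodes VEGF receptor 2, stood at 5.03 in Brain and 0.79 in Retina, with 7.52 ± 0.539 CPM in Brain Input and 162 ± 17.7 CPM in Retina Input. Flt1 was also farther from its Input in Brain (difference 1.50 ± 0.37), and Slc2a1 likewise (1.34 ± 0.35), while Cldn5 and Erg were less far (-1.21 ± 0.31 and -1.27 ± 0.46). Of 29 vascular transcription factors, 11 were lower and 5 higher in Brain, not far from the 28.9% and 20.0% of all genes (medians 3.87 in Brain and 4.90 in Retina). Of 23 interferon-stimulated genes, 6 were higher in Brain, near the 20.0% of all genes, and none was lower by edgeR's adjusted p, and Ifit1, Isg15 and Rsad2 did not pass, with differences of 0.83 ± 0.53, 0.55 ± 0.67 and 0.15 ± 0.57.

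Neuronal genes were lower in the brain pull-down and close to their Input in the retinal one. All 18 synaptic genes and all 18 glutamate and GABA receptor genes were lower in Brain by the interaction. The synaptic medians were -1.21 in Brain and -0.18 in Retina, and the receptor medians -1.40 in Brain and -0.35 in Retina. Slc17a7 stood at -1.50 in Brain and -0.03 in Retina. Of 52 potassium channel genes, 37 were lower in Brain and 2 higher. Of 18 glycolysis genes, 12 were lower in Brain, against 28.9% of all genes. The 4 oligodendrocyte genes listed in both tables were all lower in Brain, with medians of -1.98 in Brain and 0.18 in Retina.

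**Figure D5:**
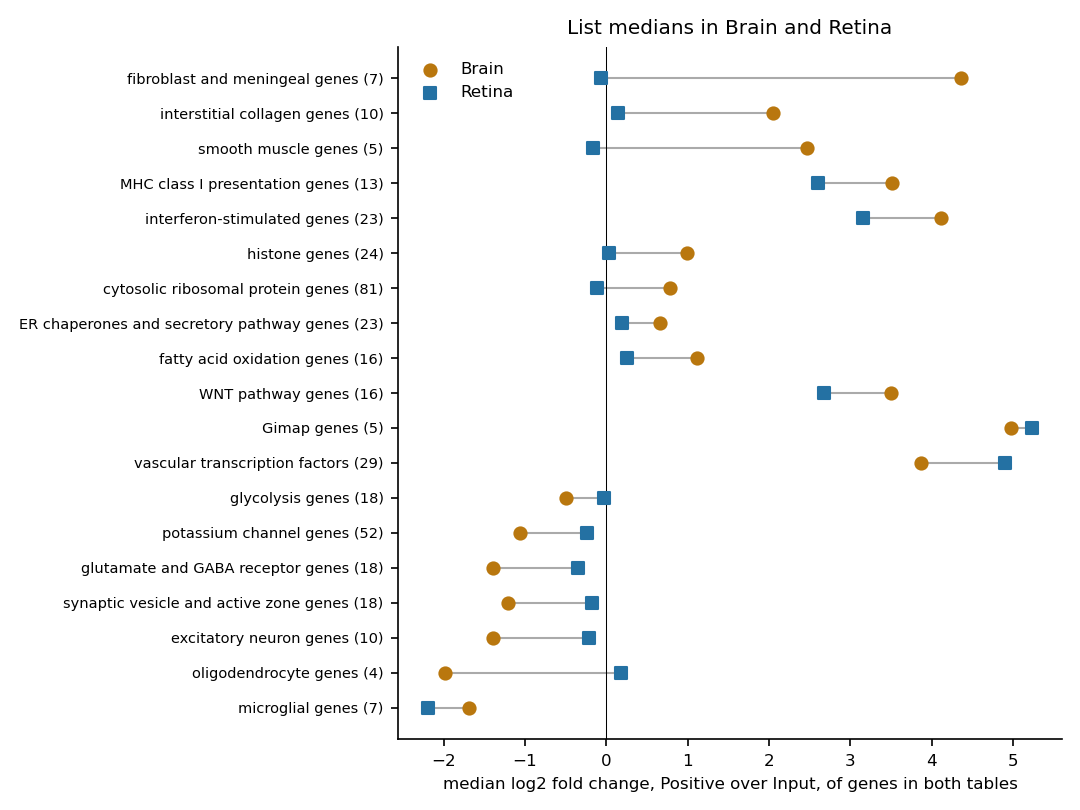
Median log2 fold change, Positive over Input (horizontal), of gene lists in Brain (circles) and Retina (squares), over the genes listed in both tables (number in brackets). The fibroblast and meningeal list shows 4.37 in Brain and -0.06 in Retina, and the synaptic list -1.21 in Brain and -0.18 in Retina.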

How the data were processed

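RNA of the Brain Positive and Brain Input fractions was sequenced in 3 libraries each from a directional kit, as the labels state. The deposited values headed raw are estimated counts made by the authors, with fractions and no scaling between libraries. The normalized values beside them are on a log2 scale, per the file headers. They were recovered as the log2 of the raw value over a factor per library, minus the Input median, within 0.001 for 99.97% of values. The file headers give the authors' minimum, 50 raw counts in every library of either fraction, and 12820 of 13957 genes met it in both. Of builds and tools, the submitters' processing notes give mm10 and DESeq. Aligner, counting program and strand setting were not given in those sources.

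The estimated counts were rounded and fitted with edgeR 4.0.16 in R 4.3.3 (TMM scaling, a filterByExpr filter at 10 counts that took out 0 genes, quasi-likelihood F test, 4 residual degrees of freedom, 8 in the fit with retina). All genes tested entered the Benjamini-Hochberg adjustment, and the threshold was 0.05. Each SE was derived from the test, as the absolute fitted log2 fold change over the square root of its F statistic. The test was tried on simulated counts. Totals are sums of listed genes and not full library depths. Input was set aside from the homogenate that went to the beads, so libraries of the same number pair. Their deviations from the group means correlated at 0.19, 0.147 and 0.169. The main fits did not use this pairing, and a block for the replicate number was an alternative. Exact permutation of 3 libraries against 3 has a smallest two-sided p of 0.1 and was not used.

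The members and the 81 gene lists (960 of 1016 symbols matched) were chosen with earlier results of these data known, as were the motifs, the promoter window and the Gene Ontology terms. Genes named by rule were the 12 highest per kilobase in each group, the 10 highest that met the minimum in Brain Positive alone, the first 2 and the 4 most changed of each list, and the 8 most different from retina each way. Other list members, exceptions to a direction among them, were picked with their values in view. A rule for the 12 largest increases and the 12 largest decreases was also set, and few of its genes are described here. Some genes that these rules pick are not reported here. Symbols are the authors', some of them older names. Coordinates and promoters are RefSeq's on GRCm38.p6 (99.85% of identifiers, 11030 promoters), and exon lengths GENCODE's (99.26% of genes). Alternatives were DESeq2 1.42.0 size factors and Wald test, the authors' factors, no filter, a filter at the median level, stricter thresholds, the replicate block, and leaving out each library.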

Additional observations from a re-analysis of the deposited data

Results flagged for a closer look

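These 16 genes differed between Brain and Retina in their log2 fold change of Positive over Input, by the interaction test, and were the 8 largest each way of the genes whose mean level reached the median. Differences are Brain minus Retina. Some genes were low in 1 Retina group, such as Slc6a13 (1.42 CPM in Retina Positive) and Afap1l2 (1.28 CPM in Retina Input). For such genes the authors' minimum can favour a direction. Farther above Input in Brain were Slc6a13 (5.89), Fmod (4.98), Serping1 (4.80), Pcolce (4.68), Spp1 (4.45), Fbln1 (4.32), Nupr1 (4.25) and Kdr (4.24). Slc6a13, Fmod, Pcolce and Fbln1 are known from meningeal or fibroblast matrix, Serping1 inhibits complement, and Spp1 encodes osteopontin. Farther above Input in Retina were Mal (-4.46), Afap1l2 (-4.32), Atp2a3 (-4.09), Fam107a (-3.83), Enc1 (-3.80), Gatm (-3.77), Pllp (-3.71) and Islr2 (-3.61). Mal and Pllp encode membrane proteins of myelin, which the retina of the mouse lacks. Mal stood at 407 ± 51.6 CPM in Brain Positive and 279 ± 10.01 CPM in Brain Input (SD, n = 3 each), and at 354 ± 192 CPM in Retina Positive and 10.96 ± 7.86 CPM in Retina Input. The Retina Positive libraries of Mal spread widely, and the cause of that spread was not tested.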

How the results depend on the processing

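Of 10896 genes past the threshold in brain, 5729 passed when only genes at or above the median level were tested (6979 genes) and 4607 when a log2 fold change of at least 1 was asked as well. Leaving out each library in turn gave 10189 to 10931. With the replicate block, which pairs Positive and Input of the same number, 11054 passed. The fit without a filter repeated the main fit, since the filter took out 0 genes. The other alternatives that refitted all genes kept between 93.1% and 99.3% of the calls, and none was called the other way. Of 6072 genes that differed between Brain and Retina, 3473 and 2068 passed under those same settings, 6090 with the replicate block, and 5281 to 6907 without 1 library. The authors' factors moved the higher share of those calls to 50.1%, against 40.9%. The pericyte median changed sign under that median filter (3.57, against -0.50), as did that of heat shock genes (-0.01, against 0.06). Where a list had no gene past the threshold in a direction in the text, DESeq2 and an unadjusted p under 0.05 gave 0 as well. Apart from Npcd, single genes that changed sign had small fold changes. Myh11 was at 0.00 with DESeq2 size factors and Wald test, 0.04 with the authors' factors and -0.18 to 0.08 without 1 library. Tug1 was at 0.00, 0.05 and -0.08 to 0.05 under the same settings. Tfrc lay between -0.02 and 0.12 without 1 library, and Npcd between -0.10 and 15.67. Genes with few counts in Brain Input, and RNA that beads hold without a tag, limit what single fold changes show.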
